A study of Mus musculus with 13 samples.

Results

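The regions described here are places at gene starts where the transcription factor FOXL2 was bound in every library that measured it, with and without activin A. They were found in LβT2 cells, which are a gonadotrope-like line from the mouse pituitary (gonadotropes make the gonadotropins). Peaks of the 4 FLAG-FOXL2 libraries that shared at least 1 bp were merged into regions, and regions were chosen by the positions of these FOXL2 peaks: a region was kept where all 4 libraries had a peak and at least 1 of those peaks lay within 1000 bp of an annotated transcription start. Of 124781 merged FOXL2 regions, 58444 had a peak in all 4 libraries and 1988 of these met the distance rule, which is 3.4% of the constant regions. These 1988 are called constant promoter regions below, and the other 56456 are called constant distal regions.

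The cells came from 1 line that had been transduced with a lentivirus for doxycycline-inducible FLAG-tagged mouse FOXL2 and constant GFP. Every group therefore carried the transgene and had received doxycycline for 48 h, and the FLAG antibody sees the induced protein and not the cell's own FOXL2. The groups differed in the last 1 h, spent in vehicle or in activin A at 1 nM after 2 h in medium with 2% serum. Each of the antibodies, to FLAG, SMAD2/3 and H3K27ac, has 2 vehicle libraries and 2 activin libraries from samples that pool 3 plates, which gives 12 libraries. Nothing in the labels says that the paired samples were separate experiments, so a spread between them may be technical.

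FOXL2 is a forkhead factor that binds DNA through a core close to GTAAACA and is needed in gonadotropes for the gene of the follicle-stimulating hormone β subunit. Activin A acts through serine-threonine kinase receptors that phosphorylate SMAD2 and SMAD3, which then enter the nucleus and bind DNA with partner factors, FOXL2 among them. H3K27ac, histone H3 acetylated on lysine 27, marks active promoters and enhancers. A promoter with the mark is usually one in use in the cell, and a start without it is often silent.

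The FOXL2 lists held 83834 to 97701 peaks, the H3K27ac lists 38995 to 41763, the SMAD2/3 lists 605 and 144 with vehicle against 7784 and 5970 with activin. Reads per library are not known from peak lists, so the length of a list stands in for depth and limits what can be compared. Among the starts of gonadotrope marker genes found in RefSeq's promoter table (GRCm38.p6), 5 of 8 (Cga, Lhb, Gnrhr, Gata2 and Foxl2) lay in an H3K27ac peak of all 4 libraries, while Fshb lay in none. None of 9 starts of genes of other pituitary lineages lay in a peak of all 4 libraries and 8 lay in none.

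Sequences are shown first, for a few promoters in which the forkhead core lay under the FOXL2 summit; most of the promoters with sequence do not hold it. RefSeq promoter windows of 300 bases, 250 before a start and 50 after it, overlapped 340 of the 1988 regions in 401 windows. The 8 below are the promoters with the highest mean FOXL2 rank among 21 whose GTAAACA core, on either strand, lay before the start and within 20 bp of the median FOXL2 summit of the 4 libraries. Each is written 5′ to 3′ on the gene's strand with the core in capitals (TGTTTAC is the core on the opposite strand).
Yipf4, chr17:74489319-74489385, plus strand: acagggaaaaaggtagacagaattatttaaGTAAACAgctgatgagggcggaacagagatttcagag
2900052L18Rik, chr11:120231627-120231693, minus strand: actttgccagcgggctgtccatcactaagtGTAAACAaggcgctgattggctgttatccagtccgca
A630073D07Rik, chr6:132627571-132627637, minus strand: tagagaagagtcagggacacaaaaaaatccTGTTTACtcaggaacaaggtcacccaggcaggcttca
Myt1, chr2:181766991-181767028, plus strand: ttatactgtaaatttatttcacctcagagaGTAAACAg
Ndufaf1, chr2:119662869-119662935, minus strand: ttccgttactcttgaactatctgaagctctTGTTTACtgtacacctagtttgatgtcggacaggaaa
Pim1, chr17:29492985-29493051, plus strand: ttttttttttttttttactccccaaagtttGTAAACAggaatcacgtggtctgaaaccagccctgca
A330015K06Rik, chr3:65302786-65302852, minus strand: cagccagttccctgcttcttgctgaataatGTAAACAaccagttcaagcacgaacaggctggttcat
Rcc1l, chr5:134176815-134176881, minus strand: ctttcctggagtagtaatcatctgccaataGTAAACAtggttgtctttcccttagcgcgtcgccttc

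In these 8 promoters the centre of the core lay from 0 to 6 bp from the median summit, closest at Rcc1l and farthest at A630073D07Rik. At Yipf4, a gene of a Golgi membrane protein, the core lay 141 bases before the start and 3 bp from the summit, with FOXL2 fold enrichments of 10.2 and 14.7 with vehicle against 12.6 and 13.8 with activin. At Ndufaf1, an assembly factor of respiratory complex I, the core lay 68 bases before the start and 3 bp from the summit, and the folds were 5.81, 6.61, 4.47 and 7.08 in the same order. At Pim1, a serine-threonine kinase gene, the core lay 67 bases before the start and 2 bp from the summit, with folds of 6.55, 8.2, 6.74 and 6.21. Vehicle and activin folds overlapped at each of these 3 genes. Fold enrichment is the authors' linear ratio of a peak over its background and describes a peak within its own list.

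Over all 401 windows, GTAAACA was present on either strand in 11.0% (44 windows, Wilson 95% interval 8.28 to 14.4%), against 3.65% of all 32817 windows in the table. It was present in 1.19% of 5789 windows that overlapped H3K27ac in all 4 libraries and no FOXL2 peak of any library. The shorter core TAAACA, which is contained in GTAAACA, was present in 26.7%, 13.4% and 4.97% of the same 3 sets, and the variant GTCAACA in 4.99%, 2.5% and 1.05%. Base composition differed between the sets too. The median GC content was 54.0% in the 401 windows, 52.7% in all windows and 62.3% in the acetylated windows without FOXL2. Its part in the result was not tested. Within the 401 windows the short core was in 21.7% of the 267 acetylated windows and in 36.6% of the 134 others. For GTAAACA these shares were 10.1% and 12.7%. GTCAACA went the other way, at 5.99% and 2.99%.

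The other motifs are given for the same 3 sets in the same order. The ETS core CCGGAAG was in 21.2% of the 401 windows, 8.86% of all windows and 20.9% of acetylated windows without FOXL2, so its share was close to that of the acetylated promoters without FOXL2. The CRE arm TGACG, which the CRE TGACGTCA contains, was in 34.9%, 20.8% and 33.4%. CCAAT, the letters bound by NFY, was in 45.6%, 37.4% and 35.3%. The GC box GGGCGGGG was in 19.2%, 17.6% and 31.4%. The SMAD element CAGAC was in 51.1%, 49.6% and 47.9%, and the AP-1 site TGAGTCA in 2.49%, 5.2% and 2.9%. All were searched on both strands, and a match is a string of letters and not a shown site.

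Of the motifs found in 10 or more regions, the forkhead core lay nearest to the FOXL2 summit. In 37 regions with a GTAAACA inside the FOXL2 peak region, the nearest core lay a median of 13 bp from the summit, and in 24 of them (64.9%) within 20 bp. For CAGAC the median was 85.5 bp in 131 regions, with 5.34% within 20 bp. For ETS it was 53.5 bp in 58 regions (17.2% within 20 bp), for CCAAT 59.8 bp in 128 regions (21.1%) and for the CRE arm 76.5 bp in 85 regions (16.5%). Summits of the FLAG libraries define both the regions and these distances, so they are given with no test.

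**Figure D1:**
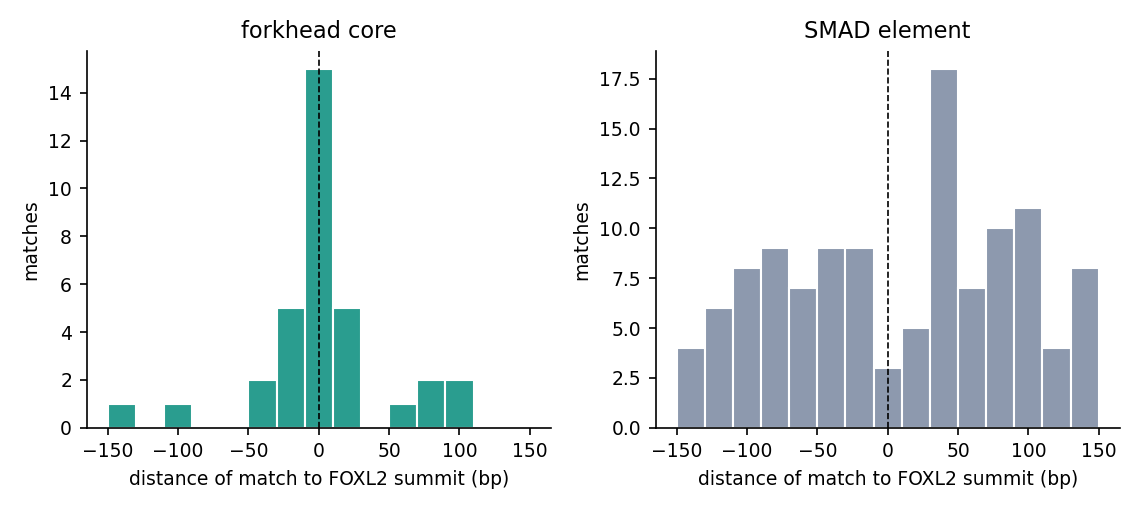
Number of matches by distance in bp from the median FOXL2 summit, for the forkhead core GTAAACA (left) and the SMAD element CAGAC (right) in RefSeq promoter windows inside constant promoter regions, in bins of 20 bp. Of 40 core matches 34 lie within the 150 bp shown and crowd around 0, while the 118 of 154 CAGAC matches shown are spread over the range.

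The regions were narrow. Their median width was 434 bp, against 466 bp for constant distal regions, and the summits of the 4 libraries spanned a median of 52 bp, against 53 bp at distal regions, and at most 50 bp in 48.9% of the promoter regions. Of the 1988, 1123 (56.5%) lay upstream of the start and 301 lay within 100 bp of it. In 1823 (91.7%) all 4 libraries had a peak within 1000 bp of a start. The peak nearest the start was annotated as promoter in 1350 regions (67.9%). It was annotated as intron in 276, as transcript end in 233 and as exon in 129. Of 5386 merged FOXL2 regions within 1000 bp of a start, 36.9% had a peak in all 4 libraries, and of 119395 farther away 47.3% did. The rule's limit of 1000 bp fell in a continuum, since 193 regions at 901 to 1000 bp had H3K27ac in all 4 libraries in 31.6% and a median FOXL2 rank of 44.5, and 229 regions just outside, at 1001 to 1100 bp, had 28.8% and 45.3.

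The annotated start was that of a protein-coding gene in 1043 regions (52.5%), which held 1003 different genes. The others lay at processed pseudogenes (165), starts of the class TEC (154), which GENCODE keeps for transcripts awaiting experiments, lincRNAs (128), miRNAs (109), snRNAs (99), antisense transcripts (93) and smaller classes. Many regions had no RefSeq start nearby: 708 (35.6%) had one within 1000 bp and 1280 (64.4%) had none in RefSeq's promoter table. That table holds 1 or a few starts a gene and is not complete. Of the 1280, 489 lay at protein-coding genes, so the share does not count alternative starts. The region at Bmpr2, for example, lay 86.1 kb from that gene's RefSeq start and the one at Acvr2a 76.4 kb.

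FOXL2 peaks at constant promoter regions had lower values than those at distal ones. Their median fold enrichment was 7.38 and 7.06 with vehicle against 7.32 and 7.47 with activin, against 9.55, 7.98, 9.45 and 8.98 at constant distal regions. Ranked by −log10 q among the 58444 constant regions, with 100 for the strongest, the median promoter region stood at 38.5 and 46.5 with vehicle against 38.5 and 43.4 with activin. Protein-coding starts stood lower, at 31.4, 43.7, 32.6 and 39, than other starts at 45.6, 49.1, 46.7 and 48.4. In both treatments the replicate 2 library placed promoter regions higher than replicate 1, so replicate and not treatment separated these medians. Strong members were few, with 138 (6.94%) among the strongest 10% of constant regions and 289 (14.5%) among the weakest 10%. These values come from the lists that chose the regions and are a description.

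Acetylation was the readout in which promoter regions stood apart from other constant FOXL2 sites. An H3K27ac peak overlapped 46.6% (vehicle replicate 1), 45.7% (vehicle replicate 2), 46.4% (activin replicate 1) and 43.0% (activin replicate 2) of the 1988 regions. At constant distal regions the shares were 21.7%, 20.9%, 21.8% and 18.8%. The difference was 24.6 ± 0.331 percentage points (SD, n = 4 libraries) and positive in 4 of 4 libraries (exact two-sided sign-flip permutation p = 0.13, the smallest that 4 libraries allow). In all 4 libraries together, 770 regions (38.7%) carried H3K27ac, against a background of 15.1% of all constant FOXL2 regions, and 941 (47.3%) carried it in none, against 71.4% of constant distal regions. A peak in 1 to 3 libraries was found at 277 regions (13.9%), close to the 14.3% of constant distal regions.

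Which kind of start it was, and how far away, went with the mark. Of protein-coding starts 52.8% carried H3K27ac in all 4 libraries (551 of 1043), of lincRNA starts 32.8%, of miRNA starts 21.1% and of processed pseudogenes 7.88%. Per library the share at protein-coding starts exceeded that at other starts by 29.0 to 30.7 points (SD 0.823, n = 4; exact sign-flip permutation p = 0.13, positive in 4 of 4). Within 100 bp of the start 64.7% of protein-coding regions were acetylated in all 4 libraries and at 750 to 1000 bp 42.9%. For other gene types the shares at the same distances were 43.9% and 14.8%, the latter next to the 15.1% of all constant FOXL2 regions. Regions with a RefSeq start within 1000 bp carried the mark in 64.1% (454 of 708, 95% interval 60.5 to 67.6%) and those without one in 24.7% (316 of 1280, 22.4 to 27.1%).

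**Figure D2:**
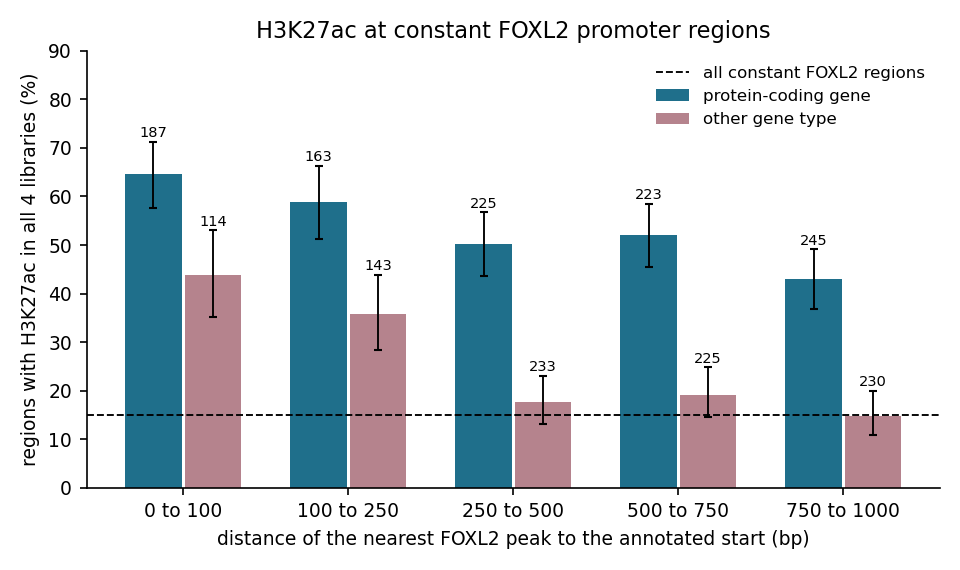
Percentage of constant promoter regions with an H3K27ac peak in all 4 libraries, by distance in bp of the nearest FOXL2 peak to the annotated start, for protein-coding and other genes; bars are shares, whiskers Wilson 95% intervals, numbers the regions in each bar, and the dashed line the 15.1% of all constant FOXL2 regions. Protein-coding starts go from 64.7% to 42.9% and other starts from 43.9% to 14.8% with distance.

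Acetylation was commoner where FOXL2 was weaker. In 4 groups of 497 regions, from the weakest to the strongest by mean FOXL2 rank, the share with H3K27ac in all 4 libraries was 49.3%, 41.4%, 36.6% and 27.6%. The share of protein-coding starts moved with it, at 61.4%, 56.3%, 49.1% and 43.1%. Among protein-coding starts alone the same order held, at 63.9%, 55.7%, 49.6% and 36.9%, and among other starts the shares were 26.0%, 23.0%, 24.1% and 20.5%, whose intervals overlap. The strongest regions without any H3K27ac peak were led by Gm24402 (an snRNA), Ttc39c, Gm9166 (a processed pseudogene) and Rorb. Rorb, a nuclear receptor gene, had FOXL2 folds of 52.2 and 31.2 with vehicle against 50.3 and 47.2 with activin, among the highest 3% of constant regions in each library, at 449 bp from its annotated start.

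Acetylation of the group as a whole did not differ between treatments beyond the spread of the libraries. The share with an H3K27ac peak was 46.2 ± 0.605% with vehicle against 44.7 ± 2.45% with activin (SD, n = 2 each), a difference of -1.46 points, which is less than the pooled SD of 1.79 (exact permutation p = 0.667, where 2 against 2 cannot give less than 0.33). Without activin replicate 2 the difference was 0.277. H3K27ac appeared in both activin libraries and neither vehicle library at 28 regions (1.41%, against 2.11% of constant distal regions) and in both vehicle and neither activin library at 43 (2.16%, against 2.47%). Ranks allow a finer view: 862 regions lay in H3K27ac regions found in all 4 libraries, ranked among 24356 such regions by −log10 q with 100 for the strongest. Both activin ranks exceeded both vehicle ranks at 235 of them (27.3%, background 27.9%) and lay below at 276 (32.0%, background 30.4%), shares near the background.

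SMAD2/3 came to a small part of the constant promoter regions, and to more of them in the activin lists. Vehicle libraries had a SMAD2/3 peak at 29 (1.46%) and 10 (0.503%) of the 1988 regions, and activin libraries at 170 (8.55%) and 136 (6.84%). The mean was 0.981 ± 0.676% with vehicle against 7.7 ± 1.21% with activin (SD, n = 2 each), and the groups did not overlap (difference 6.72 points, exact permutation p = 0.33, the smallest possible). The activin lists were also longer. With every SMAD2/3 list cut to the 144 peaks of the shortest, the difference was -0.277 points. That cut keeps only the strongest activin peaks, so it cannot separate list length from treatment. At constant distal regions the shares were 0.822% and 0.218% with vehicle against 8.61% and 6.82% with activin, so that in the activin libraries the promoter regions differed from them by -0.0196 ± 0.0607 points (SD, n = 2, exact sign-flip permutation p = 1.0, smallest possible 0.5). Both activin libraries had a peak at 119 regions (5.99%, background 6.17%) and both vehicle libraries at 9 (0.453%, background 0.217%), and 97 (4.88%, against 5.39% of constant distal regions) had it in both activin libraries and in neither vehicle library. SMAD2/3 summits lay a median of 27 and 35.5 bp from the FOXL2 summit in activin replicates 1 and 2.

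Among acetylated regions, promoter and distal regions stood apart in the activin libraries. Among acetylated promoter regions 16.2% and 13.1% had a SMAD2/3 peak in the activin libraries, against 34.0% and 27.9% of acetylated distal regions, a difference of -16.3 ± 2.05 points (SD, n = 2, lower in 2 of 2, exact sign-flip permutation p = 0.5, the smallest possible). Unacetylated promoter regions had 1.59% and 0.744% against 1.76% and 1.22% of unacetylated distal regions, a difference of -0.324 ± 0.219 points (SD, n = 2). Promoter and distal regions also differed in FOXL2 rank, as given above. For regions in an H3K27ac region found in all 4 libraries, the median H3K27ac width was 2067 bp at promoter and 3225 bp at distal regions. The part of FOXL2 rank or of width in the contrast among acetylated regions was not tested. Of unacetylated promoter regions, 0 of 941 had a SMAD2/3 peak in either vehicle library, which allows a share of up to 0.407% (upper Wilson bound, counting error only). SMAD2/3 in both activin libraries was commoner at stronger FOXL2 regions, with 2.01%, 2.62%, 8.05% and 11.3% from the weakest to the strongest of the 4 groups, the reverse of the order seen for acetylation. The share did not move with distance, being 5.32% within 100 bp of the start and 7.37% at 750 to 1000 bp, with overlapping intervals.

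Against other acetylated promoters the order was the opposite. Of 4667 RefSeq starts inside an H3K27ac peak of all 4 libraries, 362 (7.76%) had a constant promoter region within 1000 bp, compared with 1.35% of 25328 starts in no H3K27ac peak. SMAD2/3 peaks lay within 1000 bp of 44 (12.2%) and 36 (9.94%) of the 362 starts in the activin libraries and of 18 (4.97%) and 3 (0.829%) in the vehicle libraries. Of 2824 acetylated starts without any FOXL2 peak in that window, 0.744% and 0.496% had SMAD2/3 with activin and 0.921% and 0.106% with vehicle. The difference over the 4 libraries was 6.41 ± 4.9 points (SD, n = 4, higher in 4 of 4, exact sign-flip permutation p = 0.13, the smallest possible). In both activin libraries, 33 of the 362 starts (9.12%) and 8 of the 2824 (0.283%) had SMAD2/3, against a background of 2.53% of all acetylated starts. Acetylated starts with other FOXL2 peaks only, 1481 in number, which have peaks missing from some library or constant regions that did not meet the distance rule, stood between, at 7.97% and 6.48% with activin.

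**Figure D3:**
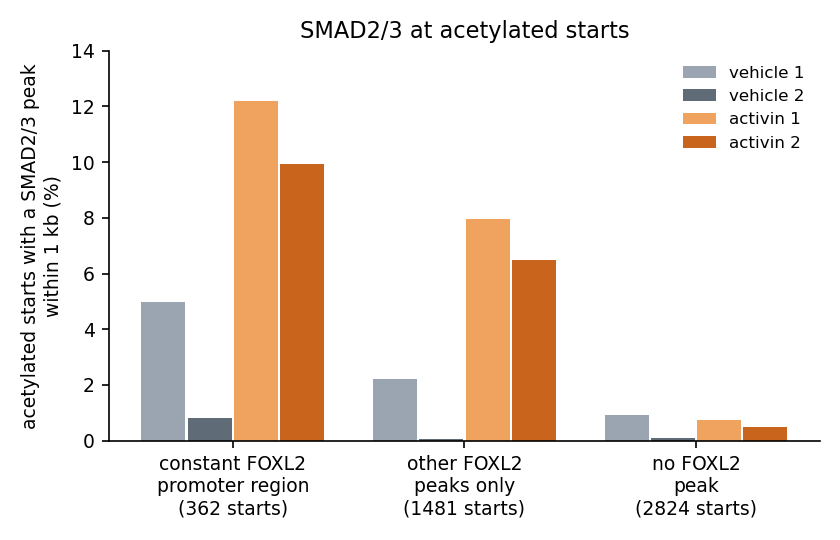
Percentage of acetylated RefSeq starts with a SMAD2/3 peak within 1000 bp in each library (1 bar a library), for starts with a constant FOXL2 promoter region, with other FOXL2 peaks only and with none. In the activin libraries the shares are 12.2% and 9.94%, 7.97% and 6.48%, and 0.744% and 0.496%.

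Measured by whole H3K27ac regions the contrast was larger, and width differed between the sets. SMAD2/3 overlapped 18.3% and 14.7% of 755 acetylated regions at a start with a constant FOXL2 site in the activin libraries and 0.552% and 0.419% of 5249 without FOXL2, while their median widths were 1933 and 1079 bp. Their median H3K27ac ranks differed as well, at 69.9, 69.3, 70.3 and 70.3 against 51.9, 51.5, 51.4 and 53.1 (vehicle 1 and 2, activin 1 and 2). The part of width or of H3K27ac rank in this contrast was not tested.

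Regions with SMAD2/3 in both activin libraries had higher H3K27ac ranks with activin more often than regions without it. Of 99 constant promoter regions with SMAD2/3 in both activin libraries and a ranked H3K27ac region, both activin H3K27ac ranks exceeded both vehicle ranks at 59 (59.6%, 95% interval 49.7 to 68.7%), and of 710 regions with no SMAD2/3 peak at 157 (22.1%, 19.2 to 25.3%). The background over all H3K27ac regions was 27.9%. FOXL2 ranks, which are a description here, were higher with activin at 55 of 119 regions with SMAD2/3 (46.2%), lower at 27 (22.7%), and higher at 350 of 1796 without it (19.5%), with a background of 26.1%, and over all 1988 at 425 (21.4%) and lower at 580 (29.2%, background 33.1%). Constant distal regions showed the same H3K27ac pattern, with 62.3% of 2281 and 24.8% of 6579, so it was not a feature of promoters. The 3 targets were precipitated from cells of the same treatments, and regions are not replicates of activin.

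Single genes show what the shares are made of, beginning with the gonadotrope genes. Of 10 genes of the gonadotrope list named in the tables, 3 had a constant promoter region (Cga, Gnrhr and Gata2). The Wilson interval of that share was 10.8 to 60.3%. Of all 28510 genes so named, called all named genes below, 6.71% had one, and of 15486 protein-coding genes 6.5%. None of 8 genes of other pituitary lineages had one (Wilson interval up to 32.4%), so the intervals of these lists overlap. All 3 gonadotrope regions carried H3K27ac in all 4 libraries. Cga and Gnrhr had SMAD2/3 in both activin libraries, and of these Cga had it with vehicle too.

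Cga encodes the α subunit shared by the gonadotropins. Its region, at chr4:34893229-34894662 in GRCm38, spanned the start and stood among the strongest of all, with FOXL2 folds of 42.3 and 30.8 with vehicle against 47.5 and 43.2 with activin. Its lowest rank in the 4 libraries was 99.26. SMAD2/3 was present in every library, with folds of 7.15 and 6.22 in the vehicle lists and 13.7 and 11.2 in the activin lists. The H3K27ac rank was 99.73 in both vehicle libraries and 98.8 and 99.17 with activin, in an acetylated domain of about 22400 bp.

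Gnrhr encodes the receptor for gonadotropin-releasing hormone. Its region, at chr5:86197708-86198424, lay over the promoter and had FOXL2 folds of 10.2 and 10.6 with vehicle against 6.98 and 6.57 with activin. The FOXL2 ranks were 71.4 and 80.9 against 52.1 and 55.3, both lower with activin, as at 33.1% of all constant FOXL2 regions. SMAD2/3 had no peak with vehicle and folds of 10.6 and 9.46 with activin. At Gnrhr, SMAD2/3 thus appeared where the FOXL2 rank was lower, the order seen at 27 of the 119 regions with SMAD2/3.

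The 250 bases before the start are printed for the strongest gonadotrope promoter and for the one with SMAD2/3 in the activin lists alone. Both FOXL2 regions reach beyond the printed bases on either side, and the rest of each is not shown. Capitals mark any letters of the motifs searched.
Cga, chr4:34893529-34893778, plus strand: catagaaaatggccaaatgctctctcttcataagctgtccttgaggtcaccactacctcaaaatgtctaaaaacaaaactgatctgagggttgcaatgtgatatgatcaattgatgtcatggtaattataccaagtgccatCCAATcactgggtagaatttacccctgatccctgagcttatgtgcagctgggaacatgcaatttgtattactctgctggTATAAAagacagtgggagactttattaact
Gnrhr, chr5:86197902-86198151, minus strand: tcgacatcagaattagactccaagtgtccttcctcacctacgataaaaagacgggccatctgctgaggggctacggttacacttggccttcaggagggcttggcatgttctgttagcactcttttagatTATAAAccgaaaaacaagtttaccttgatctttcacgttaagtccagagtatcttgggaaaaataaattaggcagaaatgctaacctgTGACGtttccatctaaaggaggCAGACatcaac
In Cga the TATA letters began 30 bases before the start and CCAAT 109 bases before it. In Gnrhr CAGAC began 11 bases before the start, the CRE arm TGACG 33 and TATAAA 121. The letters GTAAACA are in neither printed stretch, which does not tell whether the rest of each FOXL2 region holds them. Other forms of the core were not searched beyond TAAACA and GTCAACA.

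The gonadotrope lineage factor Gata2 had a weaker region at the edge of the distance rule. The Gata2 region, at chr6:88192698-88193014 and 982 bp upstream, had FOXL2 folds of 2.99 and 3.74 with vehicle against 5.34 and 3.9 with activin and no SMAD2/3 peak. It lay in an H3K27ac domain of about 12000 bp, with H3K27ac ranks of 93.7, 94.0, 94.2 and 94.8 (vehicle 1 and 2, activin 1 and 2).

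Of the activin and TGF-β pathway, 6 of 33 genes had a constant promoter region (18.2%, Wilson interval 8.61 to 34.4%, against 6.71% of all named genes). These were 2 receptors of activin (Acvr1b and Acvr2a), the BMP receptor Bmpr2, the signal carrier Smad2 and the inhibitors Smad6 and Ldlrad4. Smad6, at chr9:64021915-64022185 and 13 bp from its start, had low FOXL2 folds of 6.39, 5.57, 4.35 and 5.03. It was the one with SMAD2/3 in both activin libraries, with folds of 8.06 and 9.58, beside a peak of 6.41 in vehicle replicate 1. Ldlrad4 had no SMAD2/3 peak at the region, and its H3K27ac ranks were 23.8 and 21.6 with vehicle against 79.6 and 81.1 with activin. Acvr1b, at the activin type I receptor's start, had H3K27ac ranks of 78.4 and 66.6 against 92.4 and 91.6. Neither gene's groups overlapped, with activin higher, as at 27.9% of all H3K27ac regions found in all 4 libraries. Smad2 had ranks of 30.2 and 29.0 against 41.3 and 27.7, which did overlap. Bmpr2, with FOXL2 folds of 34.4, 32.3, 34.7 and 33.5, and Acvr2a had no H3K27ac peak in any library, and both lay far from the RefSeq start as given above.

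Other lists split by whether their genes carried the mark. Of 37 replication-dependent histone genes named in the tables, which lie in clusters and share sequence and promoters, 9 had a constant promoter region (24.3%, Wilson interval 13.4 to 40.1%), and all 9 were acetylated in all 4 libraries with no SMAD2/3 in both activin libraries. Their FOXL2 peaks were weak, with the region 25 bp from the start of Hist1h4h at folds of 4.28, 3.89, 4.35 and 5.98. Olfactory receptor genes, which are normally silent outside sensory neurons, had 9 of 326 (2.76%), and all 9 lacked H3K27ac in every library. The highest of those by FOXL2 was Olfr38, with folds of 30.5, 26.8, 23.6 and 21.1. Ribosomal protein genes had 7 of 76 (9.21%), mitochondrial ribosomal protein genes 4 of 68 (5.88%), proteasome subunits 4 of 35 (11.4%), chromatin regulators 6 of 52 (11.5%), and Zfp zinc finger genes 19 of 321 (5.92%, of which 13 acetylated in all 4 libraries). The Wilson interval of each of these 5 holds the 6.71% of all named genes.

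Cell cycle genes had 3 of 28 (10.7%, Wilson interval 3.71 to 27.2%), which were Cdk1, Trp53 and Cdkn2d. Immediate early genes had 2 of 28 (7.14%, 1.98 to 22.6%), which were Btg1 and Klf6. Both intervals hold the 6.71% of all named genes. At Cdk1, the kinase that drives entry into mitosis, FOXL2 ranks were 44.1 and 70.9 with vehicle against 16.9 and 28.8 with activin. Both activin ranks lay below both vehicle ranks, as they did at 33.1% of all constant FOXL2 regions. Btg1, an antiproliferative gene, had FOXL2 ranks of 0.94 and 30.7 with vehicle against 0.665 and 36.9 with activin. Its 2 replicate 1 libraries thus stood low and its 2 replicate 2 libraries high. Dnajb9, an endoplasmic reticulum chaperone, had the same form, with 11.3 and 59.4 against 8.69 and 50.7. A spread of this size between replicates is what the treatment has to exceed.

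By mean FOXL2 rank the 8 strongest constant promoter regions were Mir6335, Gm11802, Cga, Zfp251, Prrc2c, Gm24402, Ttc39c and Cacnb2. Zfp251, a zinc finger gene, had its region at chr15:76871677-76873161, 929 bp upstream, with FOXL2 folds of 38.5, 33.3, 40.4 and 36.8. SMAD2/3 folds there were 7.03 and 5.87 with vehicle against 20.6 and 20.1 with activin. The H3K27ac ranks of 64.1 and 73.5 with vehicle lay below the 80.7 and 88.0 with activin. That order was seen at 27.9% of all H3K27ac regions found in all 4 libraries. Cacnb2, a β subunit of voltage-gated calcium channels, was as strong by rank in vehicle (99.67 and 99.77) and had H3K27ac in all 4 libraries and no SMAD2/3 peak, at a start 51.1 kb from its RefSeq start. Strong FOXL2 and acetylation thus occurred with and without SMAD2/3.

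The 9 regions with SMAD2/3 in both vehicle libraries were at Cga, Zfp251, Mir6335, Cdc42bpa, Olfr1177-ps, Gm20544, Gm28906, Gm23971 and Maged1, and 8 of them had it in all 4 libraries. Gm28906, a processed pseudogene, had SMAD2/3 folds of 7.65 and 5.99 with vehicle against 22.7 and 14.2 with activin, of which 22.7 was the highest of the promoter regions in activin replicate 1, while Zfp251 at 20.1 was the highest in activin replicate 2. Gm28906 had H3K27ac ranks of 19.8 and 4.41 against 64.6 and 58.9. Maged1 was the exception, with SMAD2/3 folds of 7.3 and 7.21 in the vehicle libraries and no peak in either activin library. Its FOXL2 peaks were among the weakest, with folds of 3.65, 3.99, 3.63 and 5.22.

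The largest differences in H3K27ac rank were of both signs, and each sign held regions with and without SMAD2/3. The largest difference upward was at Gm27649, with 0.328 and 0.985 with vehicle against 70.4 and 67.1 with activin, followed by Ldlrad4, given above, and Tpgs2, with 35.5 and 28.3 against 91.7 and 84.2. Gm27649 and Tpgs2 had SMAD2/3 in both activin libraries. Next were Evc2, a cilium gene of hedgehog signalling, with 40.4 and 38.3 against 94.9 and 93.2, and Wdr75, a factor of ribosome production, with 19.9 and 27.5 against 85.5 and 63.1 and SMAD2/3 folds of 9.42 and 7.79 with activin. The largest difference downward was at Metrn, which encodes the secreted neurotrophic factor meteorin, with 71.3 and 69.9 against 22.3 and 18.5 and no SMAD2/3 peak. Gm11250 had 52.6 and 58.7 against 7.26 and 12.7, with SMAD2/3 folds of 5.04 and 3.48 with activin. Rbm6-ps2, the cilium gene Cfap126 and Nap1l4 followed, all without SMAD2/3, and at Cfap126 the ranks were 82.4 and 85.1 against 44.7 and 38.7. At Mrps9, a mitochondrial ribosomal protein gene, FOXL2 folds were 28.4, 33.3, 36.7 and 41.6, SMAD2/3 folds 9.61 and 6.97 with activin, and H3K27ac ranks 12.5 and 41.9 against 66.5 and 56.8. The regions at Evc2, Wdr75 and Mrps9 lay 51.4, 27 and 51.1 kb from the RefSeq starts of those genes.

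The FOXL2 rank differed most at C1d, a cofactor of the nuclear exosome, where the folds were 4.55 and 4.65 with vehicle against 22.1 and 22.3 with activin. C1d also had SMAD2/3 folds of 5.03 and 4.91 with activin alone. Bhlhb9 had ranks of 14.4 and 0.21 against 76.9 and 73.8, with no SMAD2/3 peak. In the other direction stood Ric8b, a chaperone of G protein α subunits, with FOXL2 folds of 10.9 and 10.8 against 5.91 and 4.27, and the potassium channel gene Kcna10, with 22.0 and 15.1 against 10.3 and 5.95 and no H3K27ac. A region with a peak in every list could thus differ several-fold in fold enrichment, a value that describes a peak within its own list. Constancy here means only that each list called a peak.

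**Figure D4:**
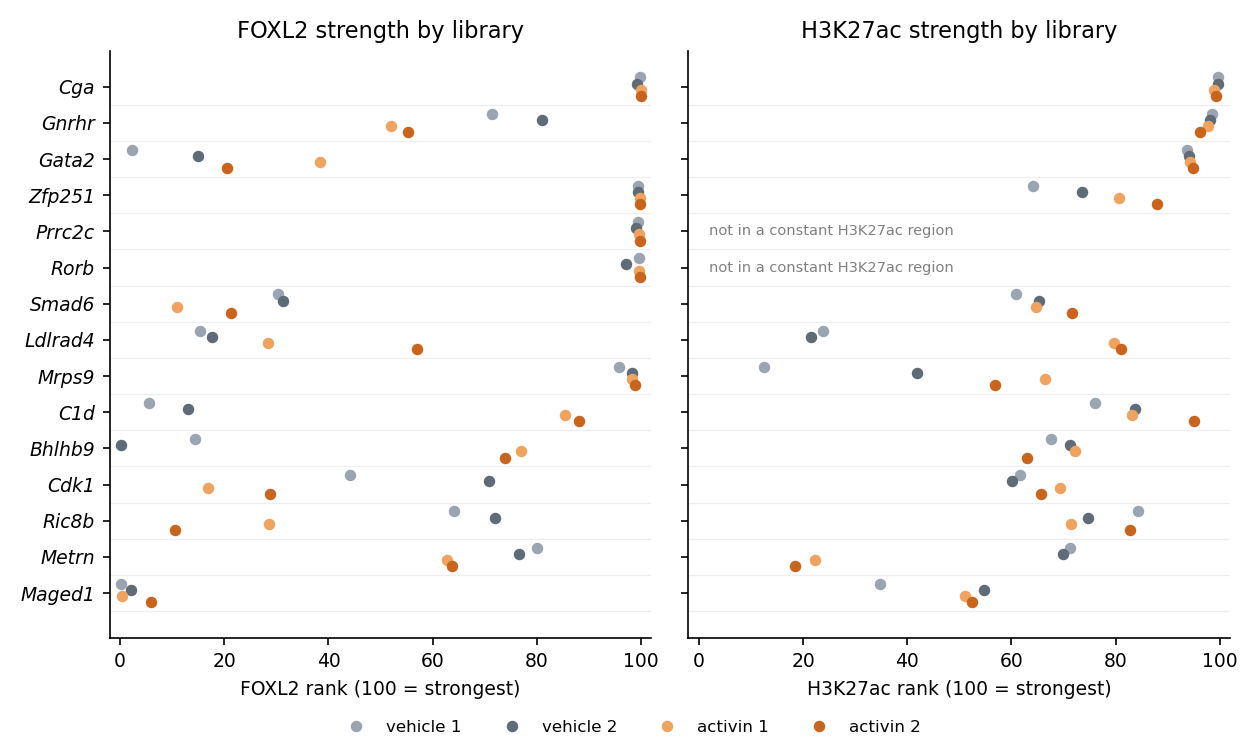
FOXL2 rank (left) and H3K27ac rank (right, 100 for the strongest) of named constant promoter regions, 1 point a library. Cga stands at the top of both in every library, Gnrhr and Ric8b have lower FOXL2 ranks with activin, C1d and Bhlhb9 higher ones, and Ldlrad4 and Metrn differ in H3K27ac in opposite directions.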

How the data were processed

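The 12 peak lists and their annotation tables were used as the authors deposited them. Bowtie2, MACS2 and HOMER and the build GRCm38 (mm10) are named in the submitters' processing notes, which state neither versions nor settings. Each deposited peak carries a fold enrichment (a linear ratio), −log10 p and −log10 q values and a score, and peaks were called per library, per the file headers. Distances to starts are those of the deposited annotation tables. The Protein-A control was not analysed here, and 1 listed gene is not reported here.

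Peaks were merged at 1 bp, ranks were percentiles by −log10 q of the strongest peak among regions with a peak in all 4 lists, and shares were compared over libraries with exact two-sided permutation tests in Python 3.11.15 with numpy 2.4.6, pandas 2.3.3 and scipy 1.17.1. The merging, overlap and rank code was tested on simulated peaks. Intervals are Wilson 95% intervals, which cover counting error only, and neighbouring regions are not independent. The regions, the gene lists and the motifs were chosen with earlier results of these data known. Named regions were the strongest by FOXL2 (8), the strongest by SMAD2/3 (10) and those with SMAD2/3 in both vehicle libraries, the largest differences in H3K27ac rank (5 each way) and in FOXL2 rank (5 each way), the strongest without H3K27ac (6), and those at listed genes. Genes of the splicing, stress, circadian, forkhead, complex I, granulosa and Hox lists had a region at 4 of 36, 2 of 26, 2 of 20, 1 of 17, 3 of 35, 0 of 3 and 0 of 4. Sequences are from RefSeq (GRCm38.p6), matched by coordinates.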

Additional observations from a re-analysis of the deposited data

How the results depend on the processing

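Of the alternatives to the distance rule, 500 bp gave 1065 constant promoter regions and 2000 bp 3953, and leaving out 1 FLAG library gave 2077 to 2225. The activin difference in the SMAD2/3 share kept its sign in 11 of 12 alternatives and was -0.277 with lists of equal length; without single libraries it was 5.86 to 7.57. That in the H3K27ac share was -3.19 to 0.277 without single libraries. H3K27ac at promoter over distal regions stayed between 17.3 and 49.1 points in 11 alternatives, 24.5 to 24.8 without single libraries. SMAD2/3 at promoter against distal regions in the activin libraries had no stable sign, with 0.749 at 500 bp, 0.0685 at 2000 bp, 0.279 with FOXL2 peaks of −log10 q of at least 5, 0.0122 with SMAD2/3 peaks of that strength, 0.00435 with 50% overlap, -1.08 with regions at a RefSeq start only and -0.0625 to 0.0233 without single libraries. The share with a higher H3K27ac rank was 22.4% at regions with a RefSeq start within 1000 bp and 36.8 to 37.6% without single libraries, where fewer ranks have to agree. SMAD2/3 in both activin libraries became 6.84 to 8.55% when 1 of them was left out. By whole H3K27ac region, the SMAD2/3 difference at acetylated promoters was 9.32 points, and 6.53 to 11.9 without single libraries. The 6.41 points of the fixed windows at acetylated starts were not recomputed without single libraries. The labels tie same-numbered libraries by the number alone, and the correlation of their replicate differences between treatments was 0.16 for FOXL2 and -0.039 for H3K27ac. With the replicate block the rank share was 32.5%, and no other share or difference changed. The exact sign-flip permutation p with the block was 0.5, the smallest possible, for the H3K27ac difference between promoter and distal regions. It was also 0.5 for the activin differences in the SMAD2/3 and H3K27ac shares and for the SMAD2/3 difference at acetylated promoters. The restriction to RefSeq starts and the fixed windows were chosen after seeing the data. The depth obtained is unknown, so a missing SMAD2/3 peak in the short vehicle lists may lie under their threshold.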
